A study of Caenorhabditis elegans with 2 samples.

Results

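Strong regions on the arms of 3 Caenorhabditis elegans autosomes were examined in a map of chromatin bound by the transcription factor MEC-3. A strong region is a candidate region of the list pooled from both replicates whose signal, a value given by the authors, was 50 or more. It belonged to an arm when its summit lay in the first or last 4 Mb of chromosome II, III or V. The arms held 860 strong regions, and the middle of the same chromosomes held 593. The whole pooled list held 27953 candidate regions, of which 2819 were strong. Chromatin immunoprecipitation followed by sequencing (ChIP-seq) had been done with an antibody against GFP on whole hermaphrodite late embryos, 4 h after egg bleaching. All animals were of strain OP55 (unc-119(ed3) III; wgIs55), a transgenic line with MEC-3 tagged at its C terminus with GFP and FLAG. There was 1 group of 2 biological replicates, with no control sample analysed here. Because whole embryos of a single transgenic line were used, the signal is a sum over all cells that carried the tagged protein.

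MEC-3 is a LIM homeodomain factor that, with the POU factor UNC-86, specifies the touch receptor neurons. The arms of worm autosomes recombine more than the middle, hold more repeats, and carry many members of fast-evolving families such as chemoreceptor and F-box genes. The middle is richer in conserved and essential genes. ChIP-seq of GFP-tagged factors in whole worms also recovers places where many unrelated factors give signal, and the lists do not mark these.

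The members were chosen by pooled signal and by position, so the members' signals are given as a description. Signal ran from 50.02 to 480 on the arms (median 58.8), and from 50.003 to 722 in the middle (median 60.8). The 5 arm regions just inside the limit had signals of 50.10, 50.07, 50.04, 50.03 and 50.02, and the 5 just outside had 49.999, 49.98, 49.98, 49.96 and 49.95. Neither side of the limit held a final peak among these, the lowest signal of a final peak being 77.4. No test between arms and middle was run. Intervals are exact 95% intervals that cover counting error only, and 64 of the 860 arm regions overlapped another member, so members are not independent.

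Several of the strongest arm regions shared a short repeated sequence, shown here because it recurs in 8 members. CCCTTTTCG, or its reverse complement CGAAAAGGG, occurred at least 2 times within 100 bp of the summit in 8 of 860 strong arm regions (0.930%, 0.402 to 1.82) and in 4 of 593 strong middle regions (0.675%, 0.184 to 1.72). Among the other candidates it did so in 4 of 7387 on the arms and in 8 of 5671 in the middle. Over the whole pooled list of windows of 201 bp it did so in 55 of 27953 (0.197%). The unit was picked after these windows had been read. The windows of 201 bp printed here are on the plus strand of ce11, from the RefSeq copy of WBcel235, each named by its nearest protein-coding gene, with the unit in capitals. The last pair are the next strongest single-copy windows outside exons and hold no copy of it.
M01F1.9, chrIII:3499946-3500146: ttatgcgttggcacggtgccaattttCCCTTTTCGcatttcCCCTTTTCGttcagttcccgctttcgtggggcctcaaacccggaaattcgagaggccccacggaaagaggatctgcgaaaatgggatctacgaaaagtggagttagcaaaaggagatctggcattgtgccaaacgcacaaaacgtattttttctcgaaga
Y62F5A.12, chrII:11534665-11534865: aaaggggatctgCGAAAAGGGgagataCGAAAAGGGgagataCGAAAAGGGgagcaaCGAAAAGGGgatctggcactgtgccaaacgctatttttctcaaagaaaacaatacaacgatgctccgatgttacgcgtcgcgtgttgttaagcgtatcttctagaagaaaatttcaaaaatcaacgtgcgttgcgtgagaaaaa
Y50D4A.6, chrV:1197491-1197691: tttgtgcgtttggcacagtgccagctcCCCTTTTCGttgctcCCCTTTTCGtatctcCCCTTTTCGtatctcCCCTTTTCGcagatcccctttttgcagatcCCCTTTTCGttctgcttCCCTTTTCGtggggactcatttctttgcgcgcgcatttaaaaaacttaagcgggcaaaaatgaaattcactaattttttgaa
ttll-4, chrIII:10123696-10123896: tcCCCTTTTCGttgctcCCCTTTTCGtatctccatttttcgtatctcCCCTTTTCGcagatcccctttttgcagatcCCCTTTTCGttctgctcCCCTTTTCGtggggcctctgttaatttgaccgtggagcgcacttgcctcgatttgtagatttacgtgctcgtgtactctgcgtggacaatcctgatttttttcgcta
klp-7, chrIII:10811043-10811243: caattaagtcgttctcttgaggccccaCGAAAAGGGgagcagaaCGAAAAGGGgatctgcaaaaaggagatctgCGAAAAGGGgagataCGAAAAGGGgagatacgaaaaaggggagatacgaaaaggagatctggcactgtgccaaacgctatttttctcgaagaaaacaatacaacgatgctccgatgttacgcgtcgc
W03C9.5, chrII:11967637-11967837: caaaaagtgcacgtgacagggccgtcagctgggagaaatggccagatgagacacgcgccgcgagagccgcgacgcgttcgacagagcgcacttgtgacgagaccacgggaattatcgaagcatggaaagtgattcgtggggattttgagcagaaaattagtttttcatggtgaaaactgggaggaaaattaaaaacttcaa
C34C12.9, chrIII:3476328-3476528: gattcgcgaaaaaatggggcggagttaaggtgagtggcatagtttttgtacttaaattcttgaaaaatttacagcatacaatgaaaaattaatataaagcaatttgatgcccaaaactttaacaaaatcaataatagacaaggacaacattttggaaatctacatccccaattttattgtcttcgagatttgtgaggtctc

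The first window is the strongest arm region, chrIII:3499906-3500207, in an intron and 989 bp upstream of M01F1.9. Its signal was 480 in the pooled list, 185 in the replicate 1 list and 298 in the replicate 2 list, and it had rank 2 in each list. Its 24-base words were largely single copy, with 7.30% found elsewhere in the genome. The unit is a run of letters found in these windows, and no factor is assigned to it.

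The next 4 windows belong to another set of 8 arm regions, 7 of which hold 2 or more copies of the unit, at 5 places that share between 20 and 89 of their 24-base words, 200 in all. Signals in the pooled list were 186 and 143 at Y62F5A.12, 128 at Y50D4A.6, 116 at ttll-4 (a tubulin polyglutamylase), 115.3 and 84.3 at klp-7 (a microtubule-depolymerising kinesin), and 108 and 65.7 at W09B6.4. All 8 overlapped a top region of both replicates, and 7 were final peaks. Of all candidates on the 3 chromosomes, 5.26% overlapped a top region of both replicates. The regions of a pair overlap the same replicate region, so 5 places rather than 8 are separate. The shared words occurred at 47 places in the genome, 39 with a candidate region, 21 with a strong one and 16 with a final peak. The words were taken from the strong arm regions at the 5 places, so those 5 are strong by choice and count among the 21. Over the whole list, 10.1% of candidates were strong and 1.63% were final. Windows with 2 or more copies of the unit made up 4 of the 20 strongest arm regions, 5 of the 20 strongest of the whole list and 20 of 457 final peaks (4.38%). They were not all strong. On the arms, regions at exos-7, Y54G11A.9, enu-3.5 and enu-3.1 held between 3 and 6 copies with signals of 48.4, 34.0, 31.7 and 28.2. Places with 2 or more copies no more than 200 bp apart numbered 20 on the arms, of which 12 had a candidate region and 7 a strong one, and 16 in the middle, of which 12 had a candidate and 4 a strong one. Reads in such sequence can map to more than 1 place, and the sources used here do not say how these were treated.

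The arms had more strong regions per length of chromosome. There were 35.8 per Mb over the 24.0 Mb of the arms (33.5 to 38.3) and 22.8 per Mb over the 26.0 Mb of the middle (21.02 to 24.7), a ratio of 1.57 (1.41 to 1.75). The ratio was 1.76 (1.47 to 2.12) on chromosome II, 1.36 (1.13 to 1.66) on III and 1.29 (1.06 to 1.56) on V. As many top regions taken from 1 replicate list alone gave 1.70 (1.52 to 1.89) with replicate 1 and 1.42 (1.28 to 1.58) with replicate 2. By chromosome the ratio was 2.17 with replicate 1 and 1.60 with replicate 2 on II, 1.32 and 1.29 on III, and 1.45 and 1.15 on V, where the interval for replicate 2 (0.948 to 1.39) includes 1.

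Much of this was shared by candidate regions of any signal. The arms held 344 candidates per Mb and the middle 241, a ratio of 1.43 (1.38 to 1.47). Of the arm candidates, 10.4% were strong, against 9.47% of the middle candidates and 10.1% of the whole list, a ratio of arms to middle of 1.10 (0.991 to 1.23). By chromosome the ratio of these shares was 1.28 (1.06 to 1.54) on II, 1.03 (0.852 to 1.25) on III and 0.920 (0.759 to 1.11) on V. Relative to genes the contrast was wider, because the arms held 198 protein-coding genes per Mb and the middle 244. Strong regions per gene were 1.94 times as many on the arms (1.75 to 2.16).

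The 6 arms differed among themselves. The right arm of II had the most strong regions, 208 or 52.0 per Mb, followed by the right arm of III with 184 (46.0 per Mb). The left arms of II and III had 141 (35.3 per Mb) and 131 (32.8 per Mb), with overlapping intervals. The left and right arms of V had 105 (26.3 per Mb, 21.5 to 31.8) and 91 (22.8 per Mb, 18.3 to 27.9), whose intervals overlap each other and that of the middle of III. The middles had 24.7 per Mb on II, 28.9 on III (24.7 to 33.6) and 19.0 on V (16.7 to 21.6). The intervals of both arms of V and of the left arm of III (27.4 to 38.9) overlap that of the middle of their own chromosome. Within the arms, the intervals by distance from the chromosome end overlapped. The share of candidates that were strong was 9.19% in the outermost 1 Mb (8.02 to 10.5), 10.9% and 11.0% in the next 2, and 10.7% (9.35 to 12.2) from 3 to 4 Mb.

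**Figure D1:**
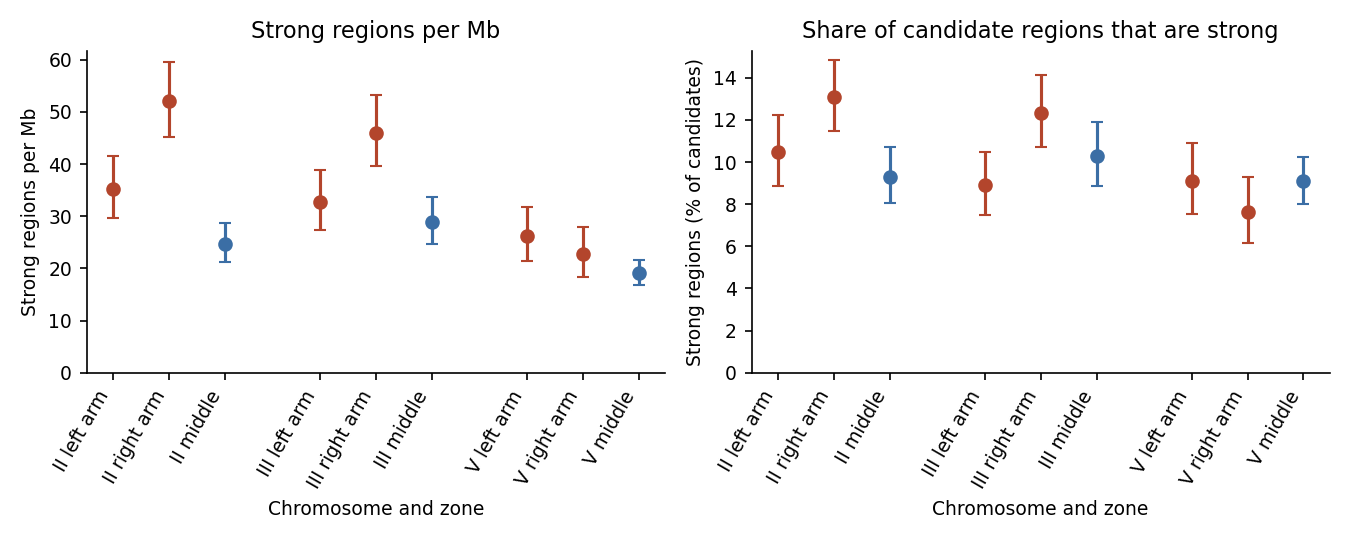
Strong regions per Mb (left, exact Poisson 95% intervals) and as a percentage of candidate regions (right, exact binomial 95% intervals), for each arm (red) and middle (blue) of chromosomes II, III and V. The right arms of II and III stand highest in both panels, at 52.0 and 46.0 per Mb and 13.1% and 12.3% of candidates, and the right arm of V is lowest of the arms, at 22.8 per Mb and 7.62%.

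The ratio of arms to middle differed between bands of signal. Arms over middle, per Mb, was 1.31 (1.25 to 1.37) for candidates with signal under 30, 1.46 (1.37 to 1.55) from 30 to 40, 1.78 (1.62 to 1.97) from 40 to 50, and 1.82 (1.57 to 2.12) from 50 to 60. It was 1.47 (1.22 to 1.78) from 60 up to the lowest final signal, 77.4. Among final peaks, the list that the authors kept after the irreproducible discovery rate (IDR) step, it was 1.15 (0.886 to 1.48). The 457 final peaks are as many as the 457 pooled regions at or above the lowest final signal. Whether a region was final was therefore fixed by its pooled signal, by which the members were also chosen. The arms held 128 final peaks, 14.9% of their strong regions, and the middle held 121, 20.4% of its strong regions, while 1.63% of all candidates were final. At a signal of 100 or more there were 46 regions on the arms and 52 in the middle, a ratio of 0.958 (0.630 to 1.45). On V the arms had 23 final peaks, fewer per Mb than the 51 of the middle, with a ratio of 0.729 whose interval (0.425 to 1.21) includes 1. The ratio for final peaks was 1.47 on II and 1.00 on III. The chromosomes also differed below that. From 60 up to the lowest final signal the ratio was 2.00 on II, its highest among the bands there, against 1.20 on III and 1.04 on V.

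**Figure D2:**
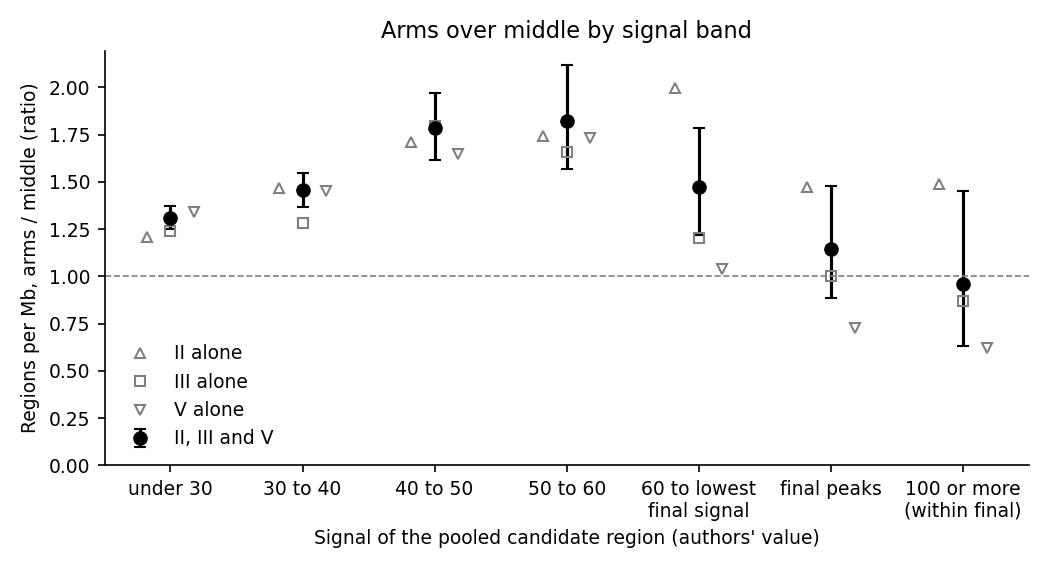
Regions per Mb on the arms divided by regions per Mb in the middle (vertical axis) for bands of pooled signal (horizontal axis); filled points with exact 95% intervals are chromosomes II, III and V together, open symbols the single chromosomes, and the dashed line marks equal density. For the chromosomes together the ratio is highest from 40 to 60, at 1.78 and 1.82 (on II alone it is highest in the next band, at 2.00), and is 1.15 for final peaks and 0.958 at 100 or more, both with intervals that include 1.

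The 20 strongest arm regions lay mostly at gene starts and small RNA genes. The summit was in a promoter window, taken from 1000 bp upstream to 500 bp downstream of a protein-coding 5′ end, in 15 of the 20, and within 500 bp of a small RNA gene in 5. All 20 overlapped a top region of both replicates, 14 lay outside protein-coding genes and 6 in introns. The 20 were picked by pooled signal, which holds the reads of both replicates, so this overlap is partly built in. The right arm of II held 7 of them and the right arm of III held 5. The remaining 8 were spread over the other 4 arms.

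The nearest genes of these regions were of varied kinds. The region chrIII:10759148-10759304, with pooled signal 203, had its summit 49 bp upstream of tasp-1, a threonine aspartase, and ranked 14 in replicate 1 and 18 in replicate 2. The region at W03C9.5, with pooled signal 190, also lay in the windows of rab-7, a small GTPase of late endosomes, and of mex-1, a zinc finger protein of the early embryo. It ranked 29 in replicate 1 and 15 in replicate 2. A region of signal 168 was 64 bp upstream of atx-2, the worm ataxin-2, and ranked 27 and 48. A region of the same rounded signal lay 487 bp upstream of ippk-1, which makes inositol hexakisphosphate, and ranked 88 and 17. A region 148 bp upstream of scc-2, which loads cohesin, had signal 126 and ranked 112 and 98. Replicate ranks of the 20 reached down to 497 in replicate 1, for the region near Y49F6B.2 and the collagen gene col-71, and to 173 in replicate 2, for one near twk-5, a potassium channel gene. The other regions of the 20 not yet named had signals of 178 near C34C12.9, 173 near Y39A1C.1, 156 near Y43F8C.7, 153 near W03C9.1, 147 near Y50D4C.5, 146 near W01D2.3, 143 near the collagen gene col-94, 142 near Y48A6C.4 and 128 near W02H5.19. Those near ippk-1, Y43F8C.7, W03C9.1 and twk-5 were within 500 bp of a snoRNA gene, and the one near col-94 lay at a snRNA gene. For scale, the 3 strongest middle regions had signals of 722 at K12H4.5, 328 at a snoRNA gene, C51F7.4, and 275 near T28H10.2.

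A smaller share of arm regions than of middle regions lay at gene starts. The summit was in a promoter window for 320 of 860 strong arm regions (37.2%, 34.0 to 40.5) and for 295 of 593 strong middle regions (49.7%, 45.6 to 53.8), while 35.7% of all candidates on the 3 chromosomes were. The arm share was the lower one on each chromosome, with 37.5% and 52.2% on II, 33.7% and 46.7% on III, and 83 of 196 regions against 123 of 246 on V. It was also the lower one with the top regions of replicate 1 alone (35.4% on the arms, 46.2% in the middle) and of replicate 2 alone (36.5% and 50.3%). Among the other candidates the shares were 31.9% on the arms and 39.0% in the middle, and promoter windows covered 31.2% of the sequence of the arms and 37.0% of that of the middle. Windows on both strands, as at divergent gene pairs, held 6.28% of arm and 13.2% of middle regions. Where a region lay upstream of its closest gene within the window, the median distance was 314 bp on the arms (207 regions) and 241 bp in the middle (218 regions). More than 2000 bp from any protein-coding 5′ end lay 34.2% of arm regions (31.0 to 37.5) and 21.6% of middle regions (18.3 to 25.1). Of the other candidates, 35.3% on the arms and 27.1% in the middle lay as far away.

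Coding sequence held a larger share of arm regions than of middle regions, and so did introns, there with overlapping intervals. The summit was in coding sequence in 339 arm regions (39.4%, 36.1 to 42.8) and 178 middle regions (30.02%, 26.4 to 33.9), although coding sequence made up 22.3% of the arms and 30.4% of the middle. Among other candidates the order was the reverse, with 34.4% on the arms and 37.0% in the middle. The strong share of candidates in coding sequence was 11.8% on the arms (10.6 to 13.0) and 7.83% in the middle (6.76 to 9.01). Introns held 29.1% of arm regions (26.1 to 32.2) and 23.3% of middle regions (19.9 to 26.9), in sequence that was 37.4% and 27.5% intron. Other candidates had the same order in introns, with 33.3% on the arms and 26.2% in the middle. Outside protein-coding genes lay 29.9% of arm and 42.3% of middle regions, against 28.5% and 30.9% of other candidates. Untranslated exons held 14 arm regions (1.63%) and 26 middle regions (4.38%).

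**Figure D3:**
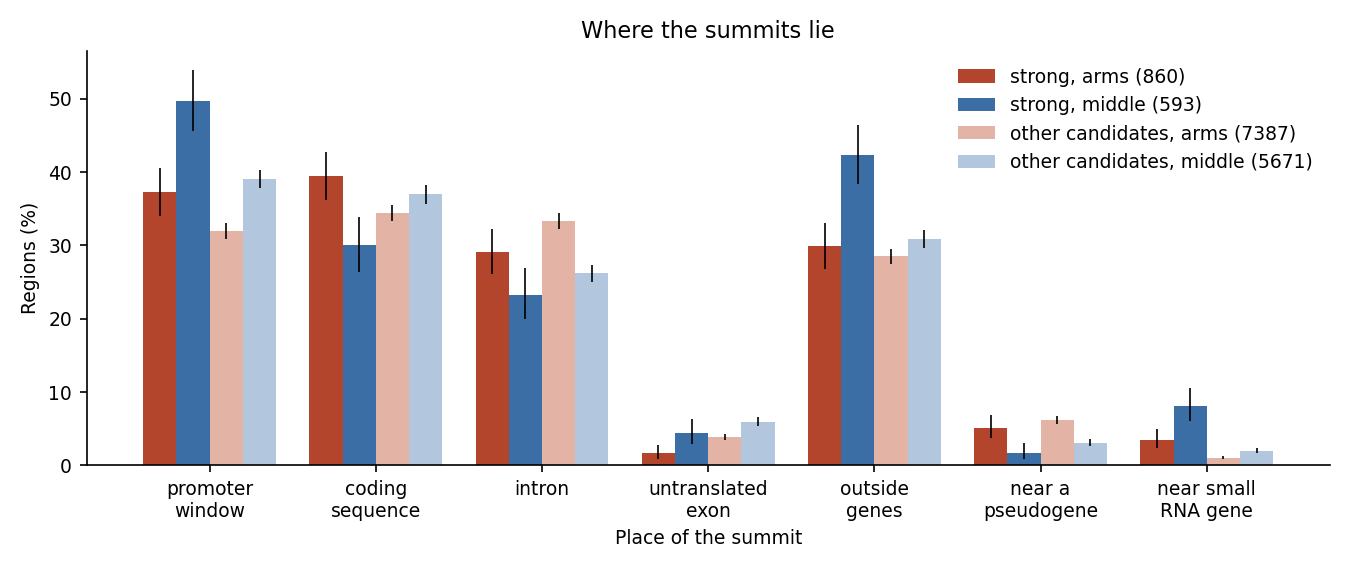
Percentage of strong regions on the arms (red) and in the middle (blue), and of the other candidate regions on the arms (pale red) and in the middle (pale blue), with the summit at each kind of place; lines are exact 95% intervals. Promoter windows hold 37.2% of strong arm regions and 49.7% of strong middle regions, and coding sequence holds 39.4% and 30.02%; the promoter window and the last 2 groups overlap the other classes.

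The makeup of the arm regions changed with their signal. Among the 215 strongest, with signals from 68.8 to 480, 50.7% were in a promoter window and 28.8% in coding sequence. Among the 215 weakest, with signals from 50.02 to 53.8, 29.8% were in a promoter window and 41.9% in coding sequence. Of the 148 strongest regions of the middle, 59.5% were in a promoter window and 13.5% in coding sequence, and of the 148 weakest 39.9% and 39.2%.

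GC content moved with signal and with position. Windows of 201 bp around the summit averaged 49.8% GC on the arms (SD 7.53, n = 860) and 48.3% in the middle (SD 7.72, n = 593), against 42.6% and 40.7% for the other candidates, while the whole sequence of the arms and of the middle was 36.04% and 35.4% GC. Strong coding windows averaged 52.2% GC on the arms and 52.6% in the middle. The share of candidates that were strong climbed with GC in both zones, to 24.6% on the arms (22.5 to 26.9) and 29.3% in the middle (25.9 to 32.8) at 50 to 60% GC, and to 43.4% (34.9 to 52.1) and 58.3% (46.1 to 69.8) at 60% or more. It was 9.05% and 9.39% at 40 to 50% GC. In each GC band from 30% up the arm share was the lower one, with intervals that overlap. The arms had more candidates of high GC. Windows of 50% GC or more were 1647 of the 8247 arm candidates (19.97%) and 762 of the 6264 middle candidates (12.2%). Per Mb, strong regions of that GC were 1.91 times as many on the arms (1.63 to 2.25), and those of lower GC 1.33 times (1.15 to 1.54). For candidates of any signal these ratios were 2.34 (2.15 to 2.55) and 1.30 (1.25 to 1.35). The part of GC in the density of strong regions was not tested.

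**Figure D4:**
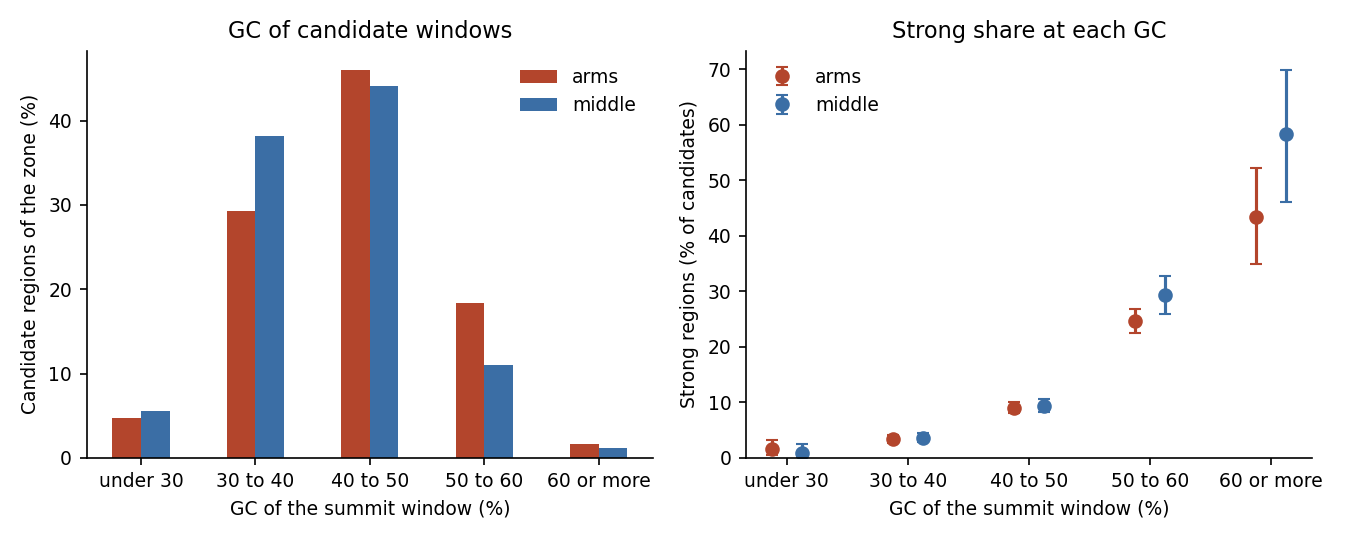
Left, candidate regions of the arms (red) and of the middle (blue) by the GC content of the 201 bp around the summit, in percent of each zone; right, percentage of the candidates at each GC that were strong, with exact 95% intervals. Candidates of 50% GC or more make up 19.97% on the arms and 12.2% in the middle, and the strong share at 50 to 60% GC is 24.6% on the arms and 29.3% in the middle.

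Repeats were not where most members lay. A window counted as multi-copy when at least 50% of its 24-base words occurred elsewhere in the genome, and 24 arm regions (2.79%, 1.80 to 4.12) and 12 middle regions (2.02%, 1.05 to 3.51) did, with 2.86% of all candidates. Among other candidates it was 3.83% on the arms and 1.69% in the middle, and 15.2% of the words of the arms and 7.06% of those of the middle were multi-copy. Soft-masked bases, those annotated as repeats, averaged 19.6% of the window on the arms and 17.3% in the middle, against 30.02% and 20.1% among other candidates. Of the whole sequence, 43.1% of the arms and 29.0% of the middle was masked. No base was masked in 302 of the 860 arm windows and in 199 of the 593 middle windows.

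Small RNA genes were close to 30 arm regions (3.49%, 2.37 to 4.94) and 48 middle regions (8.09%, 6.03 to 10.6), with 1.84% among all candidates. Other candidates had the same order, with 1.02% on the arms and 2.01% in the middle. Among the strong regions, transfer RNA genes accounted for 15 and 21, snoRNA genes, which guide RNA modification, for 12 and 24, and spliceosomal snRNA genes for 3 and 3. The arm share was the lower one with the top regions of replicate 1 alone (2.82% and 7.23%) and of replicate 2 alone (4.02% and 7.21%). The snoRNA regions on the arms had signals from 51.6 to 168, with a median of 63.3, and 5 of the 12 were final peaks. The tRNA regions ran from 50.9 to 111, with a median of 66.3, and 3 of the 15 were final peaks. The strongest snoRNA region was the one at ippk-1, 277 bp from Y17G7B.25, and the next was 28 bp from Y43F8C.22 with signal 156. No rRNA gene was near a strong region of either zone, which at 3 counts allows a share of up to 0.349% on the arms. MicroRNA genes were near 6 arm regions (0.698%) and 6 middle regions (1.01%), against 0.298% and 0.176% of other candidates.

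Pseudogenes lay within 500 bp of 44 arm regions (5.12%, 3.74 to 6.81) and 10 middle regions (1.69%, 0.812 to 3.08). Among other candidates the shares were 6.15% and 3.10%. The right arm of V held 16 of the 44, which was 17.6% of its strong regions. Signals at pseudogenes ran from 50.1 to 83.1 with a median of 54.6, and 1 of the 44 was a final peak.

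Strong regions were in the promoter windows of 357 of 4741 protein-coding genes on the arms (7.53%) and 372 of 6342 in the middle (5.87%). The arm value was the higher one with replicate 1 alone (7.15% and 4.95%) and with replicate 2 alone (7.07% and 6.13%). Of genes with any candidate region in the window, 16.4% had a strong one in both zones. A candidate of any signal was in the window of 45.9% of the arm genes and 35.9% of the middle genes.

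Of the gene families typical of the arms, chemoreceptor genes and MATH and BTB domain genes had a smaller share with a strong region than all arm genes. Of 521 chemoreceptor genes on the arms 12 had one (2.30%, 1.20 to 3.99), and of 572 in the middle 3 did (0.524%, 0.108 to 1.53). The strongest were at srh-33, srh-34 and srh-2, all on the left arm of V, with signals of 84.8, 76.5 and 66.5. F-box genes, which encode parts of ubiquitin ligases, had 15 of 224 on the arms (6.70%, 3.796 to 10.8) and 1 of 38 in the middle. The neighbours fbxa-76 and fbxa-77 shared the region of highest signal, 61.9. MATH and BTB domain genes had 1 of 75 on the arms, bath-20 with signal 64.0, and 0 of 9 in the middle. C-type lectin genes had 2 of 75 and 1 of 73, with clec-126 at 77.4. Nuclear hormone receptor genes had 3 of 95 in either zone, led on the arms by nhr-254 at 68.5. Cytochrome P450 genes had 1 of 32, cyp-33C2 at 65.1, and 0 of 27. Against 7.53% of all arm genes, the chemoreceptor and the MATH and BTB domain shares were lower, with intervals that lie below it. For MATH and BTB domain genes the share was 1.33% (0.0338 to 7.21). The intervals of the F-box, C-type lectin, nuclear hormone receptor and cytochrome P450 shares include 7.53%.

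Classes of general cell function had few members on the arms, and their counts stand beside 7.53% of all arm genes and 5.87% of all middle genes. Chaperone genes had a strong region in 3 of 8 on the arms (cct-7 at 70.3, dnj-13 at 62.3 and hsp-60 at 52.0) and in 5 of 28 in the middle. Splicing genes had 3 of 8 and 1 of 12, where rsp-1 and rsp-2, which encode SR proteins, share a region of 53.0 and prp-21 had 63.6. Genes of the transcription machinery had 4 of 11 on the arms and 1 of 20 in the middle. Those named were mdt-8, a Mediator subunit, in whose window the repeat region of signal 186 lay, and taf-12 at 96.9 and taf-7.2 at 92.5, which encode subunits of TFIID. Ribosomal protein genes had 1 of 9, rpl-43 at 116, and 3 of 27. The single translation factor gene on the arms, eif-3.B, had a region of 125, and 1 of 15 had one in the middle. Proteasome genes had 0 of 3 on the arms and 3 of 17 in the middle. Nuclear pore genes had 1 of 6, npp-16 at 51.5, and 0 of 6. Vesicle trafficking genes had 1 of 14, rab-7 at 190, and 2 of 23. Collagen genes had 2 of 19, col-71 at 127 and col-85 at 111, and 4 of 48. Neuropeptide genes had 3 of 30, led by flp-14 at 72.7, and 1 of 38. Glutathione S-transferase genes had 1 of 23, gst-27 at 70.0, and 0 of 12. Homeobox genes of the ceh class had 1 of 11, ceh-82 at 60.1, and 1 of 22. Histone genes had 0 of 15 on the arms and 0 of 29 in the middle. UDP-glucuronosyltransferase genes had 0 of 5 and 0 of 41, astacin metalloprotease genes 0 of 5 and 0 of 17, and the 13 major sperm protein genes, all in the middle, had 0. With classes of this size the intervals are wide, for example 8.52 to 75.5% for 3 of 8.

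Touch receptor and PVD neuron genes had a strong region in 1 of 2 on the arms (1.26 to 98.7%) and in 1 of 3 in the middle. These counts stand beside 7.53% of all arm genes and 5.87% of all middle genes, and are too small to compare. ptl-1, which encodes the tau-like protein of touch neurons, lies on the left arm of III and had a strong region of signal 57.5, rank 1645, with its summit 83 bp downstream of an alternative 5′ end. mec-12, the alpha-tubulin gene of these cells, lies on the same arm and had no candidate in its window. The nearest candidate was 1531 bp from its 5′ end and the nearest strong region 30338 bp away.

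Short motifs were counted on both strands within 100 bp of the summit. TAATTA, the core bound by many homeodomains, was in 24 of 860 strong arm windows (2.79%, 1.80 to 4.12) and 32 of 593 strong middle windows (5.40%, 3.72 to 7.53), below its 5.51% and 7.27% among other candidates. The interval of the strong middle windows includes that 7.27%. AATGCAT was in 1.86% of arm windows and 1.35% of middle windows, against 2.29% and 2.68% of other candidates. GAGAGA was in 16.98% of arm windows (14.5 to 19.7) and 25.3% of middle windows (21.8 to 29.0), above 12.4% and 17.1% of other candidates. CACGTG was in 6.63% of arm windows (5.06 to 8.50) and 5.73% of middle windows (4.003 to 7.92). Among other candidates it was in 4.98% (4.50 to 5.50) and 3.53% (3.06 to 4.04), so the intervals overlap in each zone. TGACGTCA was in 12 arm windows (1.40%) and 0 of 593 middle windows, which at 3 counts allows a share of up to 0.506%, against 1.75% and 0.776% of other candidates. TAATTA is rich in A and T, and the strong windows have more GC than the others; the part of this in its count was not tested.

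Neighbouring members came close together. Joining summits up to 5000 bp apart put 380 arm regions in groups (44.2%, 40.8 to 47.6) and 198 middle regions (33.4%, 29.6 to 37.3), in zones whose density also differed as above. There were 41 groups of 3 or more on the arms and 15 in the middle. The group with most members had 6 regions over 10982 bp of lin-42, the worm PERIOD gene that times development, at chrII:1234019-1245000. Along the chromosome their signals were 50.9, 75.1, 51.9, 81.2, 51.5 and 83.8, 2 in coding sequence and 4 in introns, and 3 overlapped a top region of both replicates. At arid-1, which encodes an ARID domain protein, 5 regions over 10067 bp (chrV:189423-199489) had signals of 102, 69.0, 79.0, 57.2 and 78.6. All 5 lay in coding sequence and overlapped a top region of both replicates, and the first pair overlap each other. Over sea-2, an RNA-binding zinc finger gene of sex determination, and K10G6.9, 5 regions (chrII:3961293-3972348) had signals of 56.3, 62.3, 76.6, 85.1 and 50.8. Of these 3 were in coding sequence and 2 overlapped a top region of both replicates. No window of these 3 groups was multi-copy. The remaining groups of 5 regions had a lower summed signal, and 0, 2 and 4 of their regions overlapped a top region of both replicates. The 860 arm regions had 680 nearest genes, and 10 genes were nearest to 4 or more. The 593 middle regions had 524 nearest genes, of which 3 were nearest to 4 or more.

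Over the 3 chromosomes together, the share of regions on which the replicates agreed had overlapping intervals on the arms and in the middle. A top region of a replicate is one of the 2819 of highest signal in its list. Of the arm regions, 334 overlapped a top region of both replicates (38.8%, 35.6 to 42.2), and of the middle regions 240 (40.5%, 36.5 to 44.5), while 5.26% of all candidates did. By chromosome the order differed. The share was 41.3% on the arms (36.05 to 46.6) and 32.2% in the middle (25.5 to 39.6) on II, 37.1% and 40.7% on III, and 37.2% (30.5 to 44.4) and 46.3% (39.98 to 52.8) on V. On the arms 230 overlapped a top region of replicate 1 alone, 223 one of replicate 2 alone, and 73 neither. In the middle 131 did so for replicate 1, 174 for replicate 2, and 48 for neither. Any region of both lists overlapped 847 arm regions (98.5%) and 571 middle regions (96.3%). It did so for 44.9% of the other candidates on the arms and 40.5% of those in the middle. Over the 847 and 571 regions, the Spearman correlation of the replicate signals was 0.038 on the arms and 0.066 in the middle. The members were picked by pooled signal, which limits what this correlation can show. Agreement went with pooled signal, which the replicates' reads make up. In 4 sets of near equal size and falling signal the share in the top of both was 85.6%, 46.0%, 15.8% and 7.9% on the arms, and 87.2%, 50.7%, 15.4% and 8.8% in the middle. Final peaks are the regions from a pooled signal of 77.4 up. Among them this share was 120 of 128 on the arms and 108 of 121 in the middle. By arm the share ran from 28.2% on the left arm of III to 43.5% on the right arm of III.

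**Figure D5:**
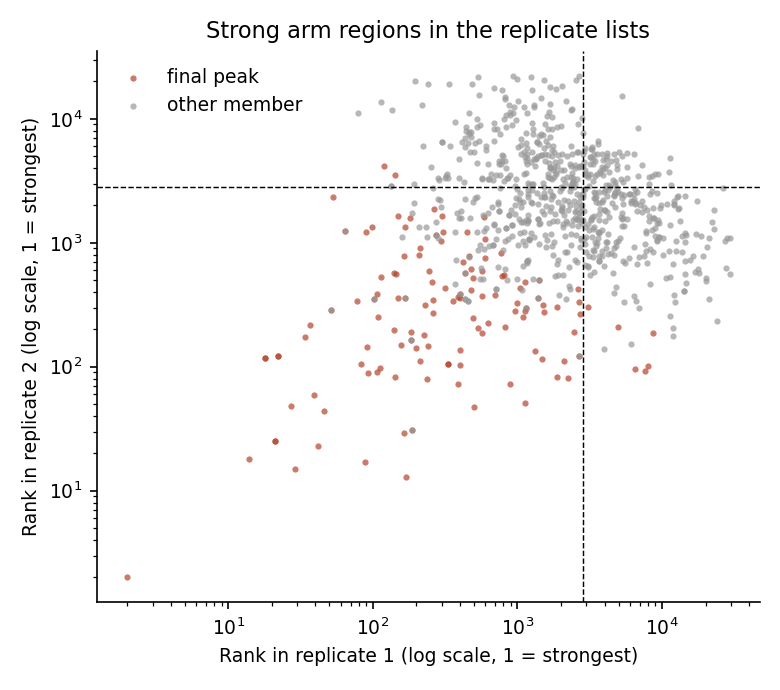
Rank of the overlapping region in the replicate 1 list (horizontal, log scale) and in the replicate 2 list (vertical, log scale) for the 847 strong arm regions found in both; red points are final peaks, grey points other members, and dashed lines mark rank 2819. The lower left quadrant holds the members in the top of both replicates, 120 of the 128 final peaks among them, and the single point at rank 2 in both is the region at M01F1.9.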

How the data were processed

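MEC-3 binding was measured by ChIP-seq in 2 biological replicates of 1 group. Per the deposited file list, the authors made a candidate list for each replicate, one from both alignments, and a final list of 457 peaks by IDR. The sources used here give no aligner, peak caller, IDR threshold or read number, so depth is unknown. The signal of a region is the authors' value, as deposited, on a scale that is not stated, and was used only to rank and filter within a list. The −log10 q-value is also as the authors deposited it and entered no result. The replicate 1 list held 30000 regions and that of replicate 2 held 22464. Coordinates are 1-based on ce11.

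Genes came from Ensembl release 115 and sequence from the RefSeq copy of WBcel235, the assembly that ce11 names. Summits were assigned to arms of 4 Mb, promoter windows, small RNA genes within 500 bp, coding sequence, introns and 24-base words counted over both strands of the genome. Shares carry exact Clopper-Pearson 95% intervals, densities exact Poisson ones, and ratios exact conditional ones. The top 2819 regions of a replicate, with an overlap of 1 bp or more, gave the replicate comparison. Leaving out a replicate means taking the top 2819 of the other. Python 3.11.15 with numpy 2.4.6, pandas 2.3.3 and scipy 1.17.1 was used, and the assignments were tested on simulated data.

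The members, the 23 gene classes, the windows and the motifs were chosen with earlier results of these data known. Named genes are those nearest to the 20 strongest arm and 3 strongest middle regions, up to 3 per class, touch neuron genes on these arms, and genes at the 3 largest groups. Groups of equal size were ordered by summed signal. The genes at the CCCTTTTCG windows were named after their values were seen. Alternatives were other arm lengths, signal limits, windows, word lengths, overlaps, the final list, the ce10 list and single replicates.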

Additional observations from a re-analysis of the deposited data

How the results depend on the processing

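The density of strong regions, arms over middle, of 1.57 stayed within its interval under 8 of 13 alternatives, among them arms of 3 Mb or 5 Mb, the ce10 list and multi-copy windows left out. It was 1.35 at a signal of 60 or more, 1.15 in the final list, 1.10 per candidate region and 1.94 per protein-coding gene. At a signal of 100 or more, a limit added after seeing the data, it was 0.958, below 1, with an interval that includes 1. Leaving out a replicate gave 1.42 to 1.70. The share of arm regions in a promoter window, 37.2%, was 28.1% with a window from 500 bp upstream, 48.4% from 2000 bp upstream, 33.6% at a signal of 40 or more and 45.8% at 60 or more, and 35.4% to 36.5% without a replicate. It was below the middle share in each of the 8 alternatives. The share near a small RNA gene, 3.49%, kept within its interval in all 6 alternatives, with 2.82% to 4.02% without a replicate. The share in the top of both replicates, 38.8%, was 27.7% with summits within 100 bp, 20.3% with 0.5 times as many top regions and 70.3% with 2 times as many. In this last case the arm share was above that of the middle, 65.8%. The share on multi-copy sequence, 2.79%, was 1.05% with 36-base words, where the middle had 1.18%, and 10.3% with a limit of 20%. The share of arm genes with a strong region, 7.53%, was 5.40% with windows from 500 bp and 10.3% from 2000 bp, both added after seeing the data, and 7.07% to 7.15% without a replicate. The cause of these shifts was not tested, beyond the wider or narrower windows and limits themselves. No paired analysis was possible because there was 1 group.

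With 2 replicates, unknown depth and no control analysed here, enrichment over a control could not be checked, and all values describe 1 transgenic line. Neighbouring regions overlap, so the intervals are too narrow.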
